A study of Mus musculus with 3 samples.

Results

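The differentiating mesenchymal cells of injured mouse sciatic nerve are described here, a group of 407 cells among the 1289 that the authors deposited as mesenchymal from 1 injured library. A cell belongs to the group when the mean z-score of 6 genes, Dlk1, Mest, Postn, Tnc, Cthrc1 and Aspn, was above 0 and above the mean z-scores of an endoneurial, an epineurial and a perineurial set. Each z-score was taken on log1p(10000 × count / cell total) over the 1289 cells. The group made up 31.6% of them (exact binomial 95% interval 29.0 to 34.2), and the whole series holds 7180 barcodes. Of the other 882 cells, 337 had the endoneurial set highest, 253 the epineurial, 153 the perineurial, and 139 had no set above 0. The 407 cells are called members below.

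All nerves came from adult mice and were dissociated with collagenase and trypsin before Drop-seq, a droplet method in which transcripts are tagged per cell and per molecule, so that a unique molecular identifier (UMI) is counted once. The injured beads library, which holds the members, came from the distal sciatic segment of wildtype CD1 mice 9 days after resection, with cells passed through myelin removal beads. The injured FACS library is the same segment and time from CD1 and C57BL/6 mice, sorted by FACS, and the sources used here do not name its gate. The uninjured library is sciatic nerve of wildtype CD1 mice, also through beads, and holds only cells that the authors predicted to be mesenchymal. Each group is 1 library, and animals within a library cannot be told apart, so no test was possible and no difference has a replicate check. Injury and library cannot be told apart either. Intervals cover counting error only.

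A peripheral nerve is wrapped and filled by mesenchymal cells: the epineurium outside, the perineurium around each bundle and the endoneurium between the axons. When a nerve is cut, axons and myelin of the distal segment break down, Schwann cells become repair cells, and mesenchymal cells divide and lay down new matrix. Of the genes that define the members, Dlk1 encodes a membrane protein of the Delta-like family known from progenitors of bone and fat, and Mest encodes an imprinted enzyme of the hydrolase fold. Postn (periostin) and Tnc (tenascin C) encode matrix proteins of wound beds and developing connective tissue. Cthrc1 encodes a secreted protein of injured tissue, and Aspn (asporin) a small leucine-rich protein of cartilage and other connective tissue.

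Start regions of 4 genes are printed here: Postn and Dlk1, 2 of the genes that define the members, and Cilp and C1qtnf3, 2 of the 15 genes named below as higher in members. These 2 are shown because, of the 11 named genes with a promoter entry, 1 held TATAAA (C1qtnf3) and 1 TGTGGT (Cilp). Each line gives the 250 bases before an annotated start, 5′ to 3′, from RefSeq on GRCm38.p6, the assembly that mm10 names. Capitals mark a motif, either TATAAA on the strand of the gene or TGTGGT, a RUNX-type motif, on either strand. The printed Postn region lies at chr3:54360857-54361106 on the plus strand, with TATAAA 26 bases before the start. Another Postn entry, at chr3:54359017-54359266, held neither motif and is not printed. Of the other genes that define the members, no Mest entry held either motif. Tnc held TATAAA 126 or 205 bases before the start, depending on the entry, and Aspn 207 bases before it. C1qtnf3 lies at chr15:10952082-10952331 on the plus strand, with TATAAA 6 bases before the start. Cilp lies at chr9:65264930-65265179 on the plus strand, with TGTGGT on the opposite strand (printed as its complement ACCACA) 205 bases before the start. Dlk1 lies at chr12:109452573-109452822 on the plus strand, with TGTGGT 143 bases before the start.
Postn: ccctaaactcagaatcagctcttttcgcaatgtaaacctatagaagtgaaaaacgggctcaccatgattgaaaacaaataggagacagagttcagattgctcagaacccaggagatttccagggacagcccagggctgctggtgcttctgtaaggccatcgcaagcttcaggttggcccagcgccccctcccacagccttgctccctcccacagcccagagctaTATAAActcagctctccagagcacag
C1qtnf3: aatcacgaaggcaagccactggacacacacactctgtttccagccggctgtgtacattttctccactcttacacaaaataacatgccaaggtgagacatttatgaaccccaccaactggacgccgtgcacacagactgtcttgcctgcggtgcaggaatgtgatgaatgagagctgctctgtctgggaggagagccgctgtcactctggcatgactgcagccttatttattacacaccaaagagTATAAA
Cilp: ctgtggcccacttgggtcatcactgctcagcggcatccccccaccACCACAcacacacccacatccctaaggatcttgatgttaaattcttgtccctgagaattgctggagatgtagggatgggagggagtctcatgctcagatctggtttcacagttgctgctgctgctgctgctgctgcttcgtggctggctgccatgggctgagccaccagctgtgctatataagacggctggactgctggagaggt
Dlk1: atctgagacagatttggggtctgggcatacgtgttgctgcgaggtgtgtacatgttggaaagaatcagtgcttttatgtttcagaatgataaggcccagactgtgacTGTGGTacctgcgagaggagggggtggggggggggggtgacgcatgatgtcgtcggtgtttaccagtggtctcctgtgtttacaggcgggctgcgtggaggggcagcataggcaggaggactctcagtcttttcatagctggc
TATAAA was present in 7.59% of all 32851 promoters of the table and TGTGGT in 14.0%. Among the genes higher in members in both injured libraries, 49 had a promoter entry, with 59 promoters, of which 8.47% held TATAAA and 11.9% TGTGGT. For genes lower in both libraries the shares were 6.47% and 9.35% of 139 promoters. Among promoters of all measured genes these shares were 4.09% and 10.2%. A match describes letters in a window and shows no binding.

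The values that chose the members are given as a description. Levels are in CPM, the UMIs of a gene summed over a pool of cells and scaled to a pool total of 1000000. Postn stood at 6843 CPM in members and 1174 CPM in the other injured cells, against 454 CPM in uninjured cells. Mest stood at 3822 CPM in members, 450 CPM in the others and 143 CPM in uninjured cells. Tnc, at 2520 CPM in members, was at 72.7 CPM in the others and 6.45 CPM in uninjured cells, so it was the gene with the widest ratio. Aspn was at 2245, 320 and 536 CPM in the same order, the one gene of the 6 that was lower in other injured cells than in uninjured cells. Dlk1 was at 1153, 103 and 25.8 CPM. Cthrc1 was at a similar pooled level in members (1321 CPM) and the other injured cells (1215 CPM), and at 1811 CPM in the endoneurial set cells. It was found in more of the members, however: thinned to 1000 UMIs per cell, 60.7% of members (55.3 to 66.0) and 40.8% of the others (36.9 to 44.7) had a Cthrc1 UMI. Cthrc1 was at 65.5 CPM in uninjured cells, so its level differed between injured and uninjured nerve in members and other cells alike.

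**Figure D1:**
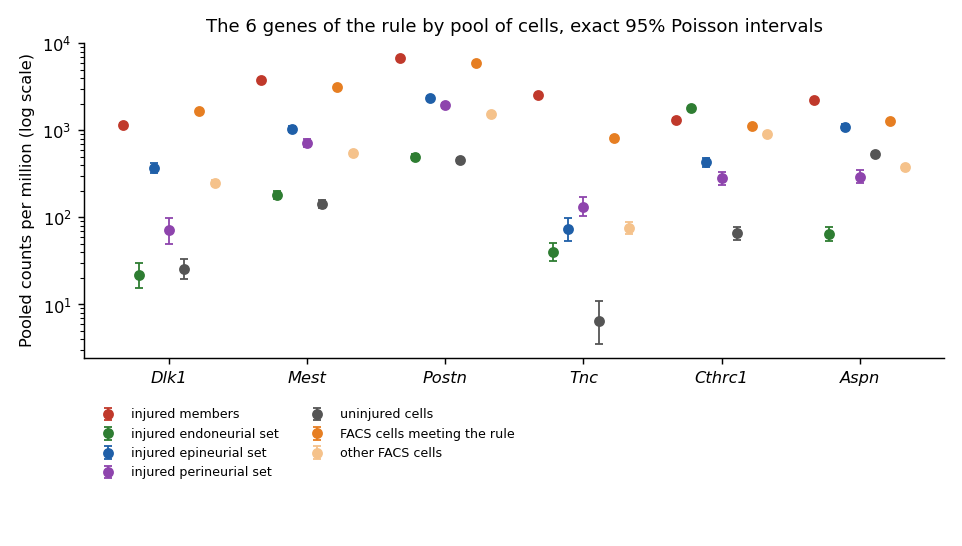
Pooled CPM (log scale) of the 6 genes of the rule in members, in the other 3 injured sets, in uninjured cells and in the FACS library, with exact 95% Poisson intervals. Tnc runs from 6.45 CPM in uninjured cells to 2520 CPM in members, while Cthrc1 is at 1811 CPM in the endoneurial set and 1321 CPM in members.

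Detection per cell of the genes that chose the members is also a description, and no check of the label. Postn had a UMI in 99.5% of members, Mest in 92.4%, Aspn in 90.7%, Cthrc1 in 81.6%, Tnc in 75.2% and Dlk1 in 53.8%, at a median of 3876 UMIs per cell. In T or NK cells of the same library (median 875 UMIs), which are not known to express these genes, Postn had a UMI in 13.5% of cells, Tnc in 7.17% and Dlk1 in 3.59%. UMIs of all 6 genes were found in 124 members, of 5 genes in 171, of 4 in 72 and of 3 in 40. Dlk1 and Tnc were therefore the genes that the members most often lacked. These genes are not limited to mesenchymal cells: Tnc was at 2023 CPM and Postn at 3514 CPM in Schwann cells of the library, while Dlk1 was at 375 CPM and Aspn at 799 CPM in pericytes or smooth muscle cells. That the members differentiate is the label's word. The counts show the marker genes at 1 time point only.

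The limit of the rule cut through a continuous range. The differentiating score had a median of 0.817 in members and -0.389 in the others. Within 0.1 of the limit lay 27 members and 36 other cells, and 49 members led the next set by less than 0.25. The 10 members nearest the limit were 0.00364 to 0.0395 inside it, and the 10 nearest other cells lay at -0.0312 to -0.00134.

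**Figure D2:**
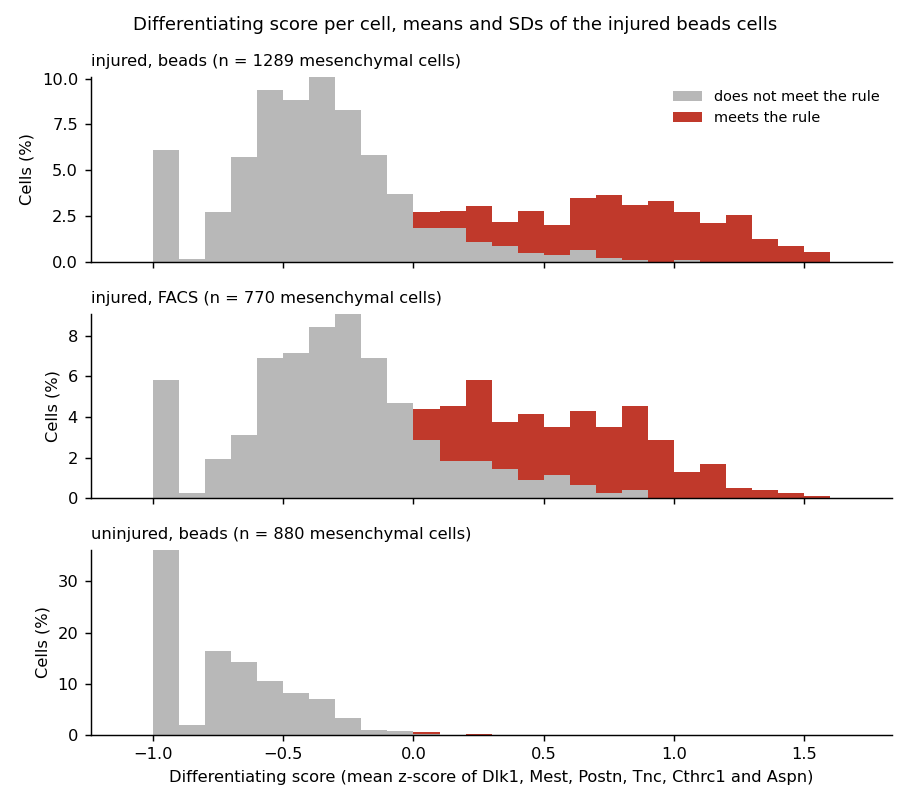
Share of cells (%) by differentiating score, the mean z-score of the 6 genes, in the injured beads, injured FACS and uninjured cells, all scaled by the injured beads cells; red bars meet the rule. Members spread over a long right tail with a median of 0.817, 265 FACS cells fill the same range, and 3 uninjured cells meet the rule.

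Scored with the means and SDs of the injured cells, 3 of 880 uninjured cells met the rule (0.341%, 0.0704 to 0.993). In the FACS library, which the rule did not use, 265 of 770 mesenchymal cells met it (34.4%, 31.1 to 37.9). The FACS mesenchymal cells were chosen here by a marker list, which found 94.5% of the authors' mesenchymal cells and 399 of the 407 members when run on the beads library. Of the 1347 beads cells that the list picked, 1218 (90.4%) were among the authors' mesenchymal cells. Scaled by its own means and SDs, the uninjured library had 127 such cells (14.4%). A z-score within a library places some cells above 0 in any library, so the common scale was used throughout.

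The members held 1718126 UMIs, the other injured cells 3028137 (median 2419.5 per cell) and the uninjured cells 2169121 (median 2102.5). The FACS cells that met the rule held 1628573 UMIs (median 5892) and the other FACS mesenchymal cells 2454363 (median 3823). Members were deeper per cell than the other injured cells as a whole, but not than the endoneurial set (median 4965), and the 139 cells with no set above 0 were shallow (median 616). The beads and FACS libraries share 1 barcode, which is not a member. Ribosomal protein genes took 5.51% of the UMIs of members and 4.21% of those of the other injured cells.

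Across the transcriptome, members were compared with the other injured cells by 2-fold size and interval. A gene counts as measured at a mean of at least 25 CPM over the pools, and as higher or lower at 2-fold or more with a ratio interval that leaves out 1. Genes of the 4 sets are left out of the counts. Of 6190 measured genes, 242 were higher in members (3.91%) and 320 lower (5.17%). The median log2 ratio over all measured genes was 0.17, and scaling by edgeR's TMM or DESeq2's size factors moved it by -0.157 or -0.145. Under those scalings the split became 163 higher and 407 lower, or 167 and 402. Cells of these pools were sorted by the same counts, so the numbers describe the group and test nothing.

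The FACS cells that met the rule give the same comparison in another library. There 120 of 5896 measured genes were higher (2.04%) and 203 lower (3.44%). Among 5559 genes measured in both libraries, 81 were higher in both, which is 41.8% of the beads calls and 75.7% of the FACS calls. The lower calls shared 158 genes, 60.3% of the beads and 81.0% of the FACS calls. None was called in opposite directions. The same 6 genes chose the cells in both libraries, so the FACS comparison is not independent of the rule.

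**Figure D3:**
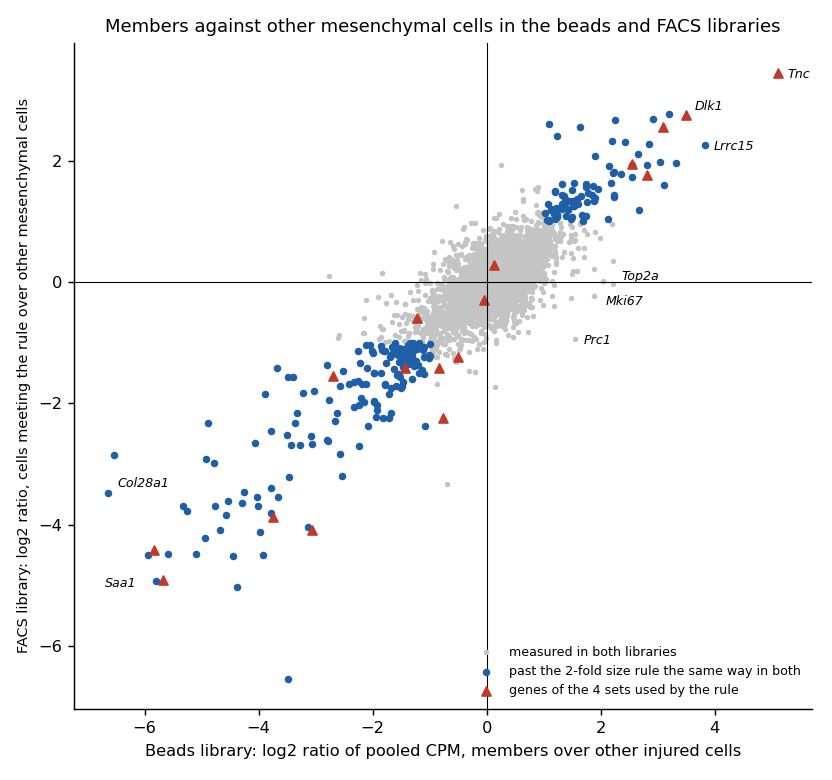
Each point is a gene measured in both injured libraries, with its log2 ratio of members over other mesenchymal cells in the beads library (x) and the FACS library (y). Blue points passed the 2-fold size rule the same way in both (81 higher, 158 lower), red triangles are genes of the 4 sets of the rule, and Top2a, Mki67 and Prc1 lie off the diagonal.

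Among genes higher in members in the beads library and at 2-fold or more in the FACS library, several encode matrix or secreted proteins. Cilp, a matrix protein of cartilage intermediate layers, was at 1418 CPM in members, 187 CPM in other injured cells, 259 CPM in uninjured cells, and 1184 against 184 CPM in the FACS library. Its log2 ratio over the other injured cells was 2.92 (2.79 to 3.06). Ptn, which encodes the heparin-binding growth factor pleiotrophin, was at 1263 CPM in members, 202 CPM in other injured cells and 51.2 CPM in uninjured cells, with a log2 ratio of 2.65 (2.52 to 2.78). FACS cells gave 1513 and 353 CPM for Ptn. Each of these genes had a UMI in 276 of 407 members (67.8%), so their levels came from most of the group. In T or NK cells (median 875 UMIs, against 3876 in members) the shares were 4.93% for Cilp and 1.79% for Ptn. In B cells (median 756 UMIs) they were 3.51% and 2.26%. Ptn was not limited to mesenchymal cells, however. It had a UMI in 43.1% of Schwann cells (median 2386 UMIs) and 22.1% of endothelial cells (median 1989 UMIs). For Cilp those shares were 2.94% and 5.89%. Of the other injured cells (median 2419.5 UMIs), 18.0% had a Cilp UMI and 19.4% a Ptn UMI.

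Col12a1, a fibril-associated collagen, was at 493 CPM in members and 84.2 CPM in the others (log2 2.55, 2.35 to 2.76). C1qtnf3, a secreted protein of the C1q and TNF family, was at 143 and 17.5 CPM (log2 3.03, 2.60 to 3.49), and at 128 and 32.6 CPM in the FACS library. P4ha3, a subunit of the enzyme that hydroxylates proline in collagen, was at 71.0 and 9.91 CPM (log2 2.84, 2.26 to 3.47). Each of the 3 was higher in members in both injured libraries. Adamts16, a metalloprotease of the ADAMTS family, was at 105 and 16.5 CPM.

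Other genes of the same group encode surface and intracellular proteins. Lrrc15, a membrane protein known from activated fibroblasts, was at 70.4 CPM in members, 4.95 CPM in the other injured cells and 1.38 CPM in uninjured cells (log2 3.83, 3.05 to 4.71, over the other injured cells). Ncam1, a neural cell adhesion molecule, was at 78.0 and 14.5 CPM in members and others. Epha3, an ephrin receptor, was at 113 and 16.2 CPM. All 3 were at 2-fold or more in the FACS library, where Lrrc15 was at 64.5 and 13.5 CPM. Bhlhe41, a transcriptional repressor of the clock circuit, was at 87.9 and 9.58 CPM, and Slc40a1, the iron exporter ferroportin, at 62.9 and 6.27 CPM. The other genes named by the rule were Ddah1, Kcnma1, Ttll5 and Tnmd.

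Comparison with each set on its own removes the weight of the endoneurial cells in the pool. Members were higher in 514 genes than the endoneurial set (8.52%), in 340 than the epineurial set (5.45%) and in 329 than the perineurial set (5.09%). Against all 3 sets, 42 genes were higher (0.752%), Cilp, Ptn, Col12a1, Lrrc15, Epha3, Plagl1, Tgfb3, Runx2 and Adam12 among them. Cilp was at 65.9 CPM in the endoneurial, 548 CPM in the epineurial and 148 CPM in the perineurial set. Ptn followed the same order, with 65.9, 519 and 171 CPM. For both genes the epineurial set came nearest to the members. With the 3 sets given the same weight in the pool of other cells, 169 genes were higher and 346 lower. Igf2 did not belong to the 42: it was at 633 CPM in members and 548 CPM in the perineurial set.

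Genes lower in members were in part genes of the endoneurial set. Trf, the iron carrier transferrin, was at 27.9 CPM in members and 1724 CPM in the other cells (log2 -5.95, -6.39 to -5.54), and at 2823 CPM in the endoneurial set. Ccl9, a chemokine, was at 25.6 and 1034 CPM, but its level was 37.5 CPM in the epineurial and 20.8 CPM in the perineurial set, so it separated members from endoneurial cells only. Col28a1, a collagen known from nerve, was at 5.24 and 524 CPM (log2 -6.64, -7.78 to -5.72). Epyc, a small leucine-rich proteoglycan, was at 21.5 CPM in members and 741 CPM in the others. It reached 69.9 CPM in the epineurial set and 208 CPM in the perineurial set.

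Of the genes named as lower, 2 had no UMI in members. Cst6, a cystatin protease inhibitor, was at 83.9 CPM in the other cells and at least 48.0-fold lower in members. Col2a1, the main collagen of cartilage, was at 65.1 CPM and at least 37.3-fold lower. Both bounds are taken against 3 counts over the pool. Saa1, an acute-phase protein whose sequence is close to that of Saa2, was at 1.75 and 97.7 CPM, and its value is uncertain where reads could be split. A2m, Gcg, Shisa3, Scube1, Cspg5, P2ry14, Fetub and Nipal1 complete the genes named as lower.

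Members were lower in 368 genes than the endoneurial set (6.1%), in 397 than the epineurial set (6.36%) and in 538 than the perineurial set (8.33%). Against all 3 sets, 44 genes were lower (0.788%). Dcn (decorin), a proteoglycan that binds collagen fibrils, was at 5339 CPM in members and 20663, 17056 and 14631 CPM in the endoneurial, epineurial and perineurial sets. Gsn (gelsolin), an actin-severing protein abundant in resting fibroblasts, was at 427 CPM in members and 960, 9269 and 1941 CPM in the sets. Ccl11 (eotaxin) was at 68.1 CPM in members and 1697, 322 and 165 CPM in the sets. These genes were thus low in members whichever set they were held against.

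Gene lists by function show how groups of genes lay in members against the other injured cells, beside the median of 0.17 over all measured genes. Each list is described by its count and its median. Over all measured genes 3.91% were higher and 5.17% lower against the other injured cells. The shares were 2.04% and 3.44% in the FACS library, and 12.3% and 8.22% against uninjured cells. A count near these shares does not set a list apart. The lists were chosen with earlier results of these data known, and none is tested.

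**Figure D4:**
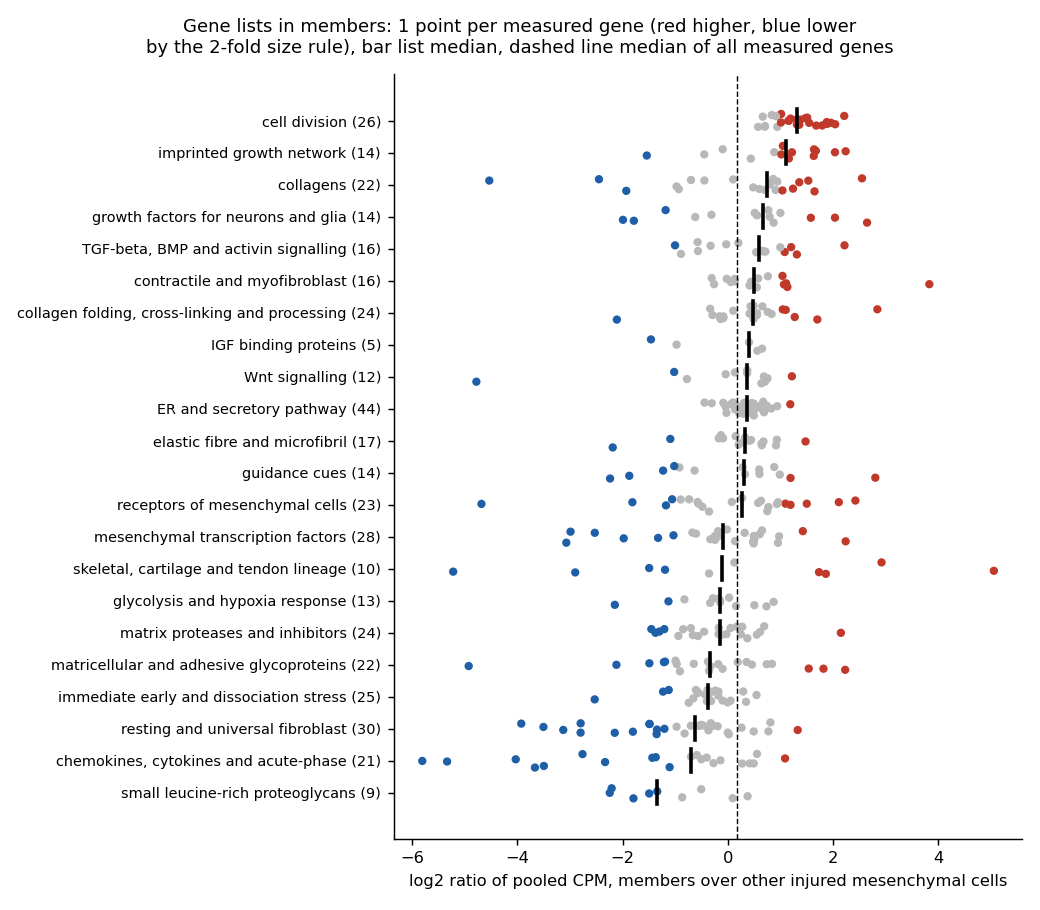
log2 ratio of members over other injured mesenchymal cells for the measured genes of 22 lists, 1 point per gene, red for higher and blue for lower by the 2-fold size rule, with the list median as a bar and the median of all measured genes (0.17) as a dashed line. Cell division and imprinted genes lie to the right and small leucine-rich proteoglycans to the left.

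The collagens Col1a1 and Col3a1 differed by less than the size rule: Col1a1 was at 11808 CPM in members and 6791 CPM in the others, and Col3a1 at 22543 and 12913 CPM. Of 22 measured collagens 6 were higher, 3 lower, and the median log2 ratio was 0.75. The split was 5 higher and 5 lower with TMM or DESeq2 scaling. Col5a2, which regulates fibril assembly, was higher at 2722 against 1153 CPM, with Col6a3, Col8a2, Col12a1, Col14a1 and Col27a1. Col4a5, Col11a1 and Col26a1 were lower. Of 20 collagens measured in the FACS library 2 were higher and 2 lower.

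Of 24 measured genes for collagen folding, cross-linking and processing 5 were higher and 1 lower (median log2 0.48). Lox, the lysyl oxidase that cross-links collagen, was at 957 CPM in members and 294 CPM in the others, and at 531 and 293 CPM in the FACS library. P4ha3, Plod2, Loxl1 and Colgalt1 were the other 4. With TMM or DESeq2 scaling 3 genes were higher (P4ha3, Plod2 and Lox) and 1 lower (Tgm2). Of 44 genes of the endoplasmic reticulum and secretory pathway, 1 was higher (Ckap4) and none lower, with a median of 0.36.

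The small leucine-rich proteoglycans, which coat collagen fibrils and set their width, lay the other way. Of 9 measured, none was higher and 5 were lower, Dcn, Lum, Fmod, Omd and Prelp, and the median log2 ratio was -1.34. Lum (lumican) was at 1498 CPM in members and 6920 CPM in the others (log2 -2.21, -2.27 to -2.15). Of 8 measured in the FACS library 4 were lower and none higher, and Lum was at 1382 and 5226 CPM. Aspn belongs to the same protein family, was part of the rule and lay opposite to it. Omd, which lies 14897 bases from Aspn on chromosome 13, was at 17.5 CPM in members and 49.2 CPM in the others. Bgn (biglycan) was at 1995 and 1538 CPM, short of the size rule.

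Matricellular and adhesive proteins were divided, with 3 of 22 higher, 5 lower and a median of -0.34 (3 and 8 with TMM or DESeq2 scaling). Thbs2, Wisp1 and Edil3 were higher. Wisp1, a secreted signal protein of the CCN family, was at 96.0 CPM in members and 19.6, 23.9 and 20.8 CPM in the endoneurial, epineurial and perineurial sets. Thbs4 (thrombospondin 4) was lower at 634 against 1451 CPM. Spp1 (osteopontin) was at 959 and 1227 CPM and short of the rule. Among 24 matrix proteases and inhibitors 1 was higher (4.17%), near the share over all measured genes. It was Adam12, a membrane metalloprotease of injured tissue, at 145 against 32.7 CPM. Adamts9, Htra1, Timp3 and Plau were lower. Of 24 measured in the FACS library, Mmp13 and Adam12 were higher and Adamts5, Htra3 and Plau lower.

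Skeletal, cartilage and tendon genes did not move as a block: of 10 measured 4 were higher, 4 lower, with a median of -0.12. Runx2, the master transcription factor of bone, was at 86.7 CPM in members, 26.1 CPM in the other injured cells and 5.07 CPM in uninjured cells (log2 1.73, 1.33 to 2.15, over the other injured cells). The FACS library gave 60.2 and 20.4 CPM for Runx2. Fibin was at 285 and 78.3 CPM in the beads library, and Cilp and Tnmd were also higher. Comp, Col2a1, Omd and Thbs4 were lower. Comp, a cartilage matrix protein, was at 11.1 CPM in members, 82.6 CPM in the other cells and 451 CPM in uninjured cells.

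Tnmd (tenomodulin), a membrane protein of tendon cells, had the largest ratio over the other injured cells of the 15 genes named as higher, but rested on few cells. It was at 87.9 CPM in members and 2.64 CPM in the others (log2 5.06, 4.04 to 6.29), and at 31.3 and 3.67 CPM in the FACS library. Its 151 UMIs came from 16 of 407 members (3.93%), and 80.8% of them from 5 cells. Endothelial cells of the library (median 1989 UMIs) had a Tnmd UMI in 0.357% of cells. In the 10 members with 2 or more Tnmd UMIs, a group formed after the values were seen, Fmod (fibromodulin, a tendon proteoglycan) was at 309 CPM against 7.23 CPM in the other members. C1qtnf3 was at 997 against 113 CPM in those 10 cells, and Dlk1 at 292 against 1183 CPM. Mkx, a tendon transcription factor, was at 51.6 against 6.02 CPM on 3 and 10 UMIs (log2 3.10, 0.60 to 5.06), and Thbs4 at 1530 against 603 CPM. Scx, another tendon factor, had no UMI there and 9 in the other members, too few to compare.

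Of 16 measured contractile and myofibroblast genes 5 were higher in members, Actn1, Lrrc15, Lrrc17, Pdlim7 and Itgb5, and none lower (median 0.50). With TMM or DESeq2 scaling only Lrrc15 passed the size rule. Acta2, the smooth muscle actin that defines myofibroblasts, was at 66.4 CPM in members, 60.4 CPM in the others and 97.3 CPM in uninjured cells. It was higher in the FACS library, at 43.0 against 20.8 CPM (log2 1.05), where Acta2 and Lrrc15 were the 2 higher genes of 15 measured. Csrp2, a LIM domain protein of smooth muscle cells and not in this list, was at 682 and 146 CPM, with UMIs in 276 members.

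Imprinted growth genes, to which Dlk1 and Mest also belong but which are counted without them, were mostly higher. Among 14 measured genes 9 were higher and 1 was lower, and the median log2 ratio was 1.10. Of these, 7 were higher with TMM or DESeq2 scaling (without Meg3 and Igf2r) and 1 lower. Plagl1, a zinc finger factor that regulates other imprinted genes, was at 489 CPM in members, 104 CPM in the others and 36.4 CPM in uninjured cells (log2 2.24, 2.05 to 2.43, over the other injured cells). It was at 314 and 119 CPM in the FACS library and higher than in each of the other sets. Cdkn1c, a cell cycle inhibitor, was at 518 and 162 CPM, and Grb10, an adaptor that restrains insulin signalling, at 519 and 167 CPM. Gnas, the stimulatory G protein subunit, was at 5292 and 1707 CPM. H19 was at 3578 CPM in members, 1941 CPM in the others and 183 CPM in uninjured cells, short of the size rule against the other injured cells.

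The same list was narrower in the FACS library, with 3 of 14 higher, 1 lower and a median of 0.55. Igf2, the fetal insulin-like growth factor, was at 633 CPM in members and 154 CPM in the others in the beads library (log2 2.04, 1.88 to 2.20). FACS cells had Igf2 at 348 and 344 CPM (log2 0.01, -0.14 to 0.17). Its difference was therefore seen in 1 of the 2 injured libraries. Peg10 was lower in members at 23.3 against 67.7 CPM, and at 15.4 against 38.3 CPM in the FACS library.

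Neighbours of the imprinted rule genes were looked up on the assembly. Mest lies on chromosome 6 at 30723547 to 30748465 on the plus strand, and Copg2, a coat protein gene on the minus strand, overlaps it by 912 bases. Copg2 was at 174 CPM in members and 34.0 CPM in the others (log2 2.36, 2.03 to 2.69). The sources used here do not say whether strand was used in counting, so reads of the overlap cannot be told apart. Klhdc10, a gene 268368 bases from Mest with no overlap, was at 89.6 and 26.1 CPM. Dlk1 lies on chromosome 12 at 109452823 to 109463336, and the noncoding RNA gene Meg3 starts 77665 bases beyond it. Meg3 was at 3348 and 1621 CPM (log2 1.05, 0.99 to 1.10), while Rian and Mirg, further along the same cluster, had log2 ratios of 1.22 and 1.16.

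Signals to other cells were described by 3 lists. Of 14 growth factors for neurons and glia Ptn, Igf2 and Rspo3 were higher and Figf, Kitl and Nrp2 lower (median 0.66). Rspo3, which amplifies Wnt signals, was at 48.3 CPM in members, 16.2 CPM in the others and 2.77 CPM in uninjured cells. Kitl, the ligand of the Kit receptor, was at 32.6 CPM in members and at 88.9, 179 and 225 CPM in the endoneurial, epineurial and perineurial sets. Of 16 genes of TGF-beta, BMP and activin signalling 4 were higher and 1 lower (median 0.59). Relative to the median of all genes, the growth factors turned to -0.0307 and the TGF-beta genes to -0.154 with cells thinned to 1000 UMIs, and the TGF-beta genes to -0.0354 without cells holding markers of another class. With TMM or DESeq2 scaling 3 TGF-beta genes were higher and 2 lower of 17 measured. In the FACS library 3 of 18 were higher and 1 lower, with a median of -0.00183 beside 0.07 over all measured genes. Against uninjured cells 7 of 18 were higher and 6 lower, with a median of -0.52 beside 0.30. Tgfb3, a TGF-beta ligand, was at 238 CPM in members and 51.2 CPM in the others (log2 2.22, 1.95 to 2.49), and at 226 and 65.2 CPM in the FACS library. Bmper, a secreted BMP modulator, was at 148 and 59.8 CPM in the beads library. Id3, a target of BMP signals, was lower at 152 against 304 CPM. Of 12 Wnt genes 1 was higher (Tcf7l2) and 2 lower (Sfrp5 and Fzd2).

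Of 23 receptors of mesenchymal cells 5 were higher and 4 lower (median 0.27). With TMM or DESeq2 scaling 3 were higher and 5 lower of 22 measured, and Cdh2 and Pdgfrl no longer passed. Cdh2 (N-cadherin) was at 41.3 CPM in members and 9.58 CPM in the others, and Ngfr, the low-affinity neurotrophin receptor, at 71.0 and 25.1 CPM. Ngfr is also a Schwann cell marker. Schwann markers in members summed to 151 CPM, with 12 of 13 detected, against 95.8 CPM in the others and 6417 CPM in Schwann cells, and their part in the Ngfr value was not tested. Pdgfra, the receptor used to find nerve mesenchymal cells, was lower at 162 CPM in members, 367 CPM in the others and 519 CPM in uninjured cells (log2 -1.18, -1.37 to -0.99, against the others). Thy1, Nt5e and Cspg4 were lower as well.

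Of 28 transcription factors 2 were higher, Plagl1 and Prrx2, and 6 lower, Tcf4, Meox1, Foxd1, Foxp2, Nr2f2 and Tbx18 (median -0.08). Prrx2, a homeobox factor of limb mesenchyme, was at 55.9 CPM in members, 20.8 CPM in the others and 8.30 CPM in uninjured cells. Tbx18, a T-box factor, was at 22.1 CPM in members and at 115, 46.1 and 49.98 CPM in the endoneurial, epineurial and perineurial sets. Of 14 guidance genes Epha3 and Epha4 were higher, and Sema3d, Ntn1, Efnb2 and Chl1 lower.

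Resting fibroblast genes were lower in members: of 30 measured 12 were lower and 1 was higher (Gpx3), and their median log2 ratio was -0.62. Angptl7, a secreted angiopoietin-like protein, was at 21.5 CPM in members, 188 CPM in the others and 2240 CPM in uninjured cells. Chemokines, cytokines and acute-phase genes were also lower, with 10 of 21 lower and 1 higher (Cxcl9, not with TMM or DESeq2 scaling), and a median of -0.70. Ccl2, a chemokine that draws monocytes, was at 175 CPM in members and 1971 CPM in the others (log2 -3.50, -3.67 to -3.33). The Ccl2 of the other cells lay in the endoneurial set, at 3164 CPM, while the epineurial and perineurial sets were at 225 and 131 CPM. Of the same list 7 of 21 were lower in the FACS library and 1 higher. Against uninjured cells the list lay the other way, with 8 of 18 measured higher in members and 5 lower. Its median there was 0.57, beside 0.30 over all measured genes. Of 25 immediate early genes, which respond to dissociation, none was higher and 3 were lower (median -0.38). Of 17 genes of elastic fibres 1 was higher and 2 were lower, of 13 genes of glycolysis and hypoxia none and 2, and of 5 IGF binding proteins none and 1 (Igfbp5).

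Cell division genes were the list with the highest median, 1.31, with 19 of 26 measured genes higher in members and none lower. Top2a, a topoisomerase of dividing cells, was at 231 CPM in members and 49.9 CPM in the others, and the proliferation marker Mki67 at 111 and 30.1 CPM. Mcm6, part of the replication helicase, was at 74.5 and 19.2 CPM, and Pcna at 94.3 and 42.3 CPM. Of 19 measured in the FACS library 4 were higher and none lower, with a median of 0.22. There Top2a was at 68.2 and 69.7 CPM, Mki67 at 25.2 and 29.7 CPM, and Pcna, the replication clamp, at 120 and 53.4 CPM. The 4 higher there were Pcna, Mcm4, Mcm6 and Mcm7, genes of DNA replication that were also higher in the beads library. With TMM or DESeq2 scaling 14 or 15 of 24 measured genes were higher in the beads library.

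Cells with UMIs of 3 or more of 32 division genes, which include genes of DNA replication, are counted as dividing. That count took in 108 of 407 members (26.5%) and 79 of 882 other cells (8.96%), and does not require a gene of mitosis. Members were deeper per cell than the other cells as a whole. With each cell thinned to 1000 UMIs, which leaves out 71 members and 244 others, 31 of 336 members (9.23%, 6.36 to 12.8) and 22 of 638 other cells (3.45%, 2.17 to 5.17) qualified. Thinned shares in the FACS library were 8.06% (4.76 to 12.6) and 3.67% (2.02 to 6.09). Within the beads library the perineurial set reached 8.06% (3.94 to 14.3), a range that overlaps that of the members, while 0 of 191 epineurial cells qualified (interval up to 1.91%). Schwann cells reached 14.7%, and 0 of 19 neutrophils, which do not divide, qualified (interval up to 17.6%). Among members, the rule genes differed by less than 2-fold between cells counted as dividing (median 6092.5 UMIs) and the rest (median 3084 UMIs). These groups differ in depth as well, and depth was not evened out here. Dlk1 was at 1115 CPM in members counted as dividing and 1179 CPM in the others, and Mest at 3723 and 3890 CPM. Tnc was at 3007 and 2183 CPM (log2 0.46, 0.38 to 0.55), and Postn at 6208 and 7281 CPM.

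Against the uninjured library, 741 of 6046 measured genes were higher in members (12.3%) and 497 lower (8.22%). The median log2 ratio of all measured genes was 0.30. That majority depends on the scaling. TMM factors moved the median by -0.241 and gave 432 higher and 661 lower, and DESeq2 factors moved it by -0.273 and gave 405 and 695. Held against the uninjured cells, the FACS cells that met the rule had 738 of 5867 genes higher (12.6%) and 558 lower (9.51%). Both comparisons share the uninjured cells and are given side by side. Genes named here passed the rule in members and lay at 2-fold or more the same way in the FACS cells.

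Barx2, a homeobox factor, had no UMI in the uninjured cells and was at 49.5 CPM in members. Rnf150, a ring finger protein, was at 79.7 CPM in members, 44.8 CPM in the FACS cells and 0.461 CPM in uninjured cells. Agtr2, the type 2 angiotensin receptor, was at 121 CPM in members and in the FACS cells alike, and at 1.84 CPM in uninjured cells. Saa3, an acute-phase protein, was at 165 CPM in members, 9.21 CPM in the FACS cells and 0 in uninjured cells. The chemokine Cxcl5 was at 217, 23.95 and 2.31 CPM in the same order. Saa3 and Cxcl5 thus differed widely between the injured libraries. Barx2 was chosen after its values were seen, from the 42 genes above.

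Among the genes lower than in uninjured cells, Enpp2 (autotaxin, which makes lysophosphatidic acid) was at 5.24 CPM in members, 7.37 CPM in the FACS cells and 746 CPM in uninjured cells. Myoc (myocilin) was at 2.91, 2.46 and 565 CPM. Resting fibroblast genes had 21 of 32 measured lower and 1 higher, with a median of -1.58, and Gsn was at 427 CPM against 17373 CPM in uninjured cells. The small leucine-rich proteoglycans had 8 of 9 lower and Bgn higher (median -2.29), and Dcn was at 5339 CPM against 42804 CPM. Immediate early genes had 18 of 25 lower and 1 higher (Ier3). Fos was at 1758 CPM in members, 2191 CPM in the other injured cells and 6323 CPM in uninjured cells. Handling of the tissue and injury cannot be told apart for these genes.

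The lists with the highest medians against uninjured cells were skeletal, cartilage and tendon genes (6 of 9 measured higher, 2 lower, median 2.62), cell division (19 of 20 higher, none lower, median 2.41) and imprinted genes (10 of 13 higher, 1 lower, median 1.62). Growth factors for neurons and glia had 8 of 14 higher and 3 lower. Mdk (midkine), the relative of Ptn, was at 1042 CPM in members, 521 CPM in the other injured cells and 68.7 CPM in uninjured cells. Igf1 was at 3793, 2186 and 717 CPM in the same order. For Mdk and Igf1 the other injured cells lay between members and uninjured cells. Of 24 genes for collagen folding and cross-linking 9 were higher and none lower, and of 22 collagens 9 were higher and 3 lower. Sox4, a factor of progenitor cells, was at 385 CPM in members, 199 CPM in the other injured cells and 30.4 CPM in uninjured cells.

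The members were not uniform. Clustering of all 1289 cells without the genes of the rule gave 9 clusters, of which 3 consisted mostly of members and held 298 of the 407 (73.2%). Those 3 clusters held 435 cells, of which 68.5% were members. Another 99 members lay in a cluster of low depth (median 686.5 UMIs). A coarser and a finer clustering, with 6 and 14 clusters, placed 73.2% and 69.0% of the members in clusters made up mostly of members. Clustering the members alone, a division made after their values were seen, gave groups of 143, 102, 83, 46 and 33 cells. The group of 143 had Dlk1 at 497 CPM, Tnc at 3410 CPM and Cilp at 2000 CPM. The group of 102 had the reverse, with Dlk1 at 2416 CPM, Tnc at 563 CPM, Ptn at 2065 CPM and Sfrp2, a secreted Wnt modulator, at 906 CPM. Sfrp2 was at 24.5 CPM in the group of 143.

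The 3 smaller groups differed by other features. Several immediate early genes were among the leading genes of the group of 83, with Atf3 at 412 CPM against 53.0 CPM in the other members. Ighm, an immunoglobulin gene, was also at 99.1 against 1.58 CPM there. The group of 46 was shallow (median 1242.5 UMIs), and 32 of the 33 cells of the last were counted as dividing. Mki67 had 181 UMIs in those 33 cells, and 3, 3, 4 and 0 in the groups of 143, 102, 83 and 46. In the same order, 32, 18, 23 and 3 cells of those groups were counted as dividing. The genes of the rule were left out of this clustering too, but they chose the members, so their levels are a description.

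Dlk1 and Tnc were taken apart in single cells after these values were seen. UMIs of both were found in 158 members (38.8%), of Dlk1 alone in 61 (14.99%), of Tnc alone in 148 (36.4%) and of neither in 40. FACS cells that met the rule gave 90, 63, 73 and 39 of 265. Thinned to 1000 UMIs, Dlk1 was found in 38.3% of members with Tnc (31.2 to 45.9) and in 40.4% of those without it (32.6 to 48.5), 2 ranges that overlap. In the FACS library Dlk1 was found in 15 of 66 thinned cells with Tnc (22.7%, 13.3 to 34.7) and in 63 of 145 without it (43.4%, 35.2 to 51.9). Both genes are part of the rule, so a cell that lacks 1 needs more of the other genes to meet it, and a lower share beside the other gene is in part built into the choice of cells.

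**Figure D5:**
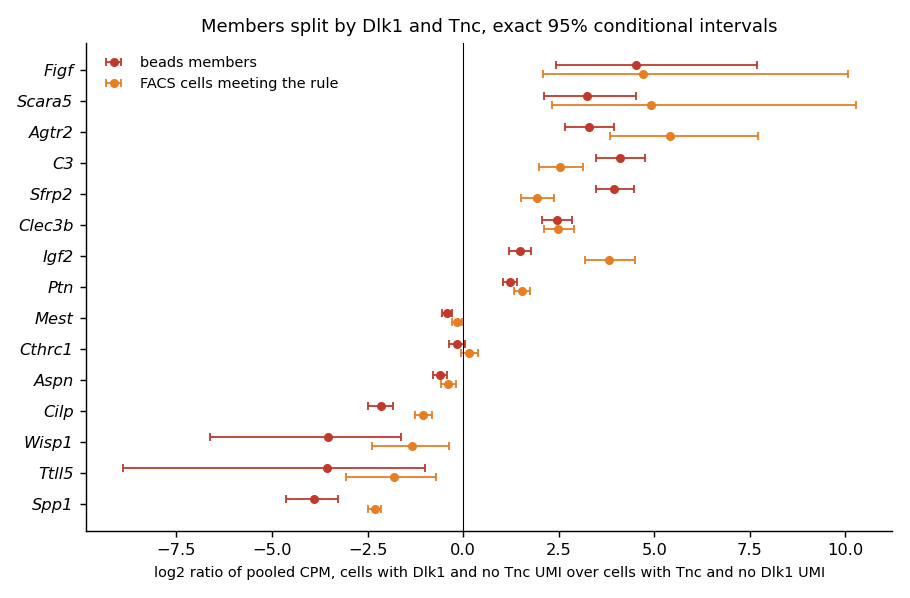
log2 ratio of pooled CPM in cells with Dlk1 but no Tnc UMI over cells with Tnc but no Dlk1 UMI, in members (red) and FACS cells that met the rule (orange), with exact 95% intervals. Figf, Scara5, Agtr2, C3 and Sfrp2 lie to the right in both libraries, and Spp1, Wisp1 and Cilp to the left.

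Cells with Dlk1 alone and cells with Tnc alone differed in other genes. In members 282 of 6182 measured genes were higher in the first (4.56%) and 240 lower (3.88%), and in the FACS cells 237 of 5828 were higher (4.07%) and 250 lower (4.29%). Of 5262 genes measured in both, the higher calls shared 68 genes (32.5% of the beads and 32.2% of the FACS calls) and the lower calls 47 (21.5% and 22.3%). Called in opposite directions were 1 of the higher and 3 of the lower genes of the beads library. Small pools limit these ratios. C3, the central complement protein, was at 733 CPM in members with Dlk1 alone and 43.0 CPM in those with Tnc alone, and at 476 and 82.3 CPM in the FACS cells. Sfrp2 was at 1052 and 67.8 CPM in members, and 598 and 157 CPM in the FACS cells. Agtr2 was at 450 and 46.3 CPM, and 340 and 7.96 CPM.

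Igf2, which did not separate the FACS cells that met the rule from the others, separated the Dlk1 cells among them. It was at 816 CPM with Dlk1 alone and 58.4 CPM with Tnc alone in the FACS library (log2 3.81, 3.18 to 4.50), and at 936 and 334 CPM in members. Ptn was at 2165 and 926 CPM in members. On the Tnc side, Spp1 was at 1516 CPM against 101 CPM in members with Dlk1 alone, and at 5207 against 1046 CPM in the FACS cells. Cilp was at 1906 CPM with Tnc alone and 430 CPM with Dlk1 alone, and Wisp1 at 117 and 10.1 CPM. Mest and Cthrc1 differed by less than 2-fold between the cells with Dlk1 alone and those with Tnc alone. Clec3b, a gene of the epineurial set, had a log2 ratio of 2.45 in members and 2.49 in the FACS cells toward the Dlk1 side.

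The second-highest set of a member was the perineurial in 206, the epineurial in 148 and the endoneurial in 53. This order says little, since a cell with no UMI of the perineurial genes scored -0.277, above the lowest endoneurial (-0.718) and epineurial (-0.487) scores, and that was the median perineurial score of members. Members with the endoneurial set second were higher than those with the epineurial set second in 219 of 6173 genes (3.55%) and lower in 120 (1.94%). Epyc was at 71.9 and 7.85 CPM in them, on 19 and 5 UMIs. Sfrp2 lay the other way, at 53.0 and 545 CPM.

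Markers of other cell types were present at low levels in members. Mononuclear phagocyte markers summed to 355 CPM in members (15 of 16 detected), 644 CPM in the other injured cells and 46.1 CPM in uninjured cells, against 77392 CPM in phagocytes of the library. In the FACS library they summed to 1768 CPM in cells that met the rule and 1468 CPM in the others. Endothelial markers summed to 212 CPM in members and 303 CPM in the others, and pericyte or smooth muscle markers to 125 and 239 CPM. T or NK, B, neutrophil and mast cell markers summed to 24.4, 51.2, 39.6 and 33.8 CPM in members. UMIs of 3 or more markers of another class were found in 81 members (19.9%) and 20.0% of the other injured cells, and in 69.8% and 59.2% in the FACS library. Without such cells the FACS comparison gave 294 genes higher and 234 lower. The beads comparison without them gave 233 higher and 339 lower, and the share of members was 31.6%.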

How the data were processed

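Drop-seq libraries of injured (beads and FACS) and uninjured mouse sciatic nerve were used, 1 per group. The authors deposited UMI counts as whole numbers, not normalized. The submitters' processing notes name mm10. How mesenchymal cells were picked, which aligner and counting tool were run and whether strand was used is not given in the sources used here. Samples were grouped by the labels' titles. Members, gene lists and rules for named genes were chosen with earlier results of these data known.

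Counts were summed over cells and scaled to CPM. Ratios carry exact conditional binomial 95% intervals, levels exact Poisson and shares exact binomial intervals, all for counting error only. In libraries other than the injured beads cells, z-scores used that table's means and SDs. FACS cells were taken as mesenchymal by their highest marker list score among barcodes with at least 200 genes (1914 of 2000). No doublet caller was run, and cells with UMIs of 3 or more markers of another class were left out as an alternative. Named genes were the 15 highest and 15 lowest ratios past the size rule that lay past 2-fold alike among FACS cells, 8 each way against uninjured cells, and the extreme or called genes of each list, leaving out mitochondrial, ribosomal, haemoglobin and predicted genes. The calculation of the pooled comparison was checked on simulated Poisson counts. These held no variation between cells or libraries, so the check says nothing of the reported genes. Python 3.11.15, scipy 1.17.1, scanpy 1.11.5, edgeR 4.0.16 and DESeq2 1.42.0 were used, the last 2 for scaling factors only.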

Additional observations from a re-analysis of the deposited data

Results flagged for a closer look

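Prc1, which encodes a protein that bundles microtubules at the end of mitosis, lay in opposite directions in the injured libraries. In the beads library it was at 112 CPM in members and 38.3 CPM in the other cells, a log2 ratio of 1.54 (1.20 to 1.89). Among FACS cells it was at 27.6 CPM in cells that met the rule and 53.0 CPM in the others, a log2 ratio of -0.94 (-1.46 to -0.44). The difference between the libraries was not tested, since each is a single library. The libraries also differed in mouse strain and isolation, and these cannot be told apart.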

How the results depend on the processing

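No paired analysis was possible because each group is 1 library. Of the values recomputed for named genes, 2885 stayed within the counting-error interval of the reported value and 703 moved. Among values past the size rule 1 changed sign: Cspg4 in the FACS library went to a log2 ratio of 0.00113 without cells holding markers of another class. Sign changes of other values are counted among those that stayed or moved. For lists, 535 stayed within 0.3 of the reported value, 34 moved and 3 changed sign. Sign was followed only for lists 0.3 or more from the median of all genes. Lists 0.3 or more from the median of all genes numbered 14, and 9 with the 3 other sets given the same weight. Relative to all genes, TGF-beta genes went to -0.154 with cells thinned to 1000 UMIs and -0.0354 without cells holding other markers, and growth factors to -0.0307 when thinned. Without the CPM filter, genes higher and lower numbered 778 and 920 against the other injured cells, 1896 and 1360 against uninjured cells and 448 and 691 in the FACS library. Genes higher than in uninjured cells numbered 432 with TMM and 405 with DESeq2 factors. Genes higher in the FACS library numbered 202 when thinned and 294 without cells holding other markers. The share of members was 27.1% without dividing cells, 27.8% with a margin of 0.25, 34.5% without Cthrc1 in the rule, and 35.4% without cells that had no set above 0, an alternative chosen after seeing the data. In the FACS library the same settings gave 29.7%, 26.8% and, for the last, 39.1%, and 27.97% without cells holding other markers. The uninjured share was 0 of 880 with the margin (exact interval up to 0.418%) and 14.4% with its own means and SDs. The cause of these shifts was not tested. Depth limits genes under 25 CPM and cells under 1000 UMIs.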
